A study of Mus musculus with 2 samples.

Results

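Oxidative phosphorylation is the step of respiration in which mitochondria use electrons from the breakdown of sugars and fats to make ATP. Complexes I and II take up electrons, complexes III and IV pass them on to oxygen, and complexes I, III and IV pump protons that drive complex V, the ATP synthase. The subunits come from both genomes: a small set of core subunits is encoded by mitochondrial DNA and transcribed inside the organelle, and all others are encoded in the nucleus and imported as proteins. Complex II is encoded by the nucleus alone. In human melanoma, the lineage factor MITF is known to raise expression of the coactivator PPARGC1A, which in turn raises expression of respiratory genes.

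The genes described here were a named list of 50 subunit genes, taken by symbol from the 32285 genes of the count matrix. All 50 were found, 13 of them mitochondrially encoded and 37 nuclear, and all 50 were among the 7849 genes with a mean level of at least 10 CPM, counts scaled to the same library total. They are compared between 2 libraries of B16 F10 cells, a mouse melanoma line that makes melanin. The cells were grown for 7 days from a density of 100 cells/cm2 in high-glucose DMEM with 10% serum at 37 °C, trypsinised, and sorted by side scatter. The high pigment cells and the low pigment cells were prepared separately, as 1 library per group, with the 3' v3.1 kit of 10x Genomics, which captures polyadenylated RNA at its 3' end and gives every molecule a sequence tag (unique molecular identifier, UMI). Both groups came from the same line and medium, with no drug or gene change named in the labels, and side scatter was the only stated measure of pigment.

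There were 2136 high pigment cells with 28848691 UMIs in all and 1900 low pigment cells with 32437194. The median cell had 12557 UMIs in the high pigment and 16019.5 UMIs in the low pigment library. The labels call the cells melanocytes, and all 7 melanocyte markers were above 10 CPM in both libraries, among them Tyr at 122 CPM in the high pigment and 126 CPM in the low pigment library and Dct at 8011 and 5856 CPM. Of the 20 markers of fibroblasts, leukocytes, endothelium, keratinocytes and erythroid cells, 19 were below 2 CPM in both libraries, and Col3a1, Adgre1, Emcn, Krt1 and Hbb-bs had no UMI. The exception was Pecam1, an endothelial adhesion molecule, with 2.81 CPM in the high pigment and 22.4 CPM in the low pigment library, while the endothelial markers Cdh5, Kdr and Tek had at most 3 UMIs. In the authors' cell table, G2M cells were 44.4% of the high pigment and 23.5% of the low pigment library, and G1 cells were 33.1% and 39.4%. No barcode sequence was shared between the cells of the 2 libraries.

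With 1 library per group, no difference below has a replicate check and no test was made. All intervals are exact 95% intervals for counting error only. A gene is called higher or lower in the high pigment library by size alone, when the CPM of one library was at least 25% above that of the other, with the lower library as the base, so that a lower call needs a ratio of at most 0.8. Levels are shares of a library's or a cell's UMIs, so a higher share can stand beside fewer molecules per cell.

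The nuclear and the mitochondrial subunit genes differed in opposite directions. The 37 nuclear members together made up 2.15% of the UMIs in the high pigment library and 1.86% in the low pigment library, a ratio of 1.155 (1.151 to 1.159). The 13 mitochondrial members made up 5.00% in the high pigment and 5.63% in the low pigment library, a ratio of 0.888 (0.886 to 0.890). Of the nuclear members, 8 were called higher and 2 lower, beside 10.9% of all measured genes called higher and 23.4% called lower. Of the mitochondrial members, 0 were called higher and 3 lower, a share near that background. The 3 were mt-Nd4l, mt-Nd5 and mt-Atp8, and the counts of mt-Nd4l and mt-Atp8 carry a limit given below. The median log2 ratio was 0.16 over the nuclear and −0.24 over the mitochondrial members, against −0.08 over all measured genes. Without the limit on size, 25 of 37 nuclear members had a ratio above 1, 22 of them with an interval above 1, and all 13 mitochondrial members had an interval below 1.

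In molecules per cell the picture was different. A high pigment cell had a mean of 290 nuclear-member UMIs and a low pigment cell had 317, so the larger share went with a smaller number. The mean for the mitochondrial members was 675 UMIs in high pigment cells and 962 UMIs in low pigment cells. Fewer UMIs per cell can come from less RNA, from lower capture or from less sequencing per cell, and these cannot be told apart here.

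**Figure D1:**
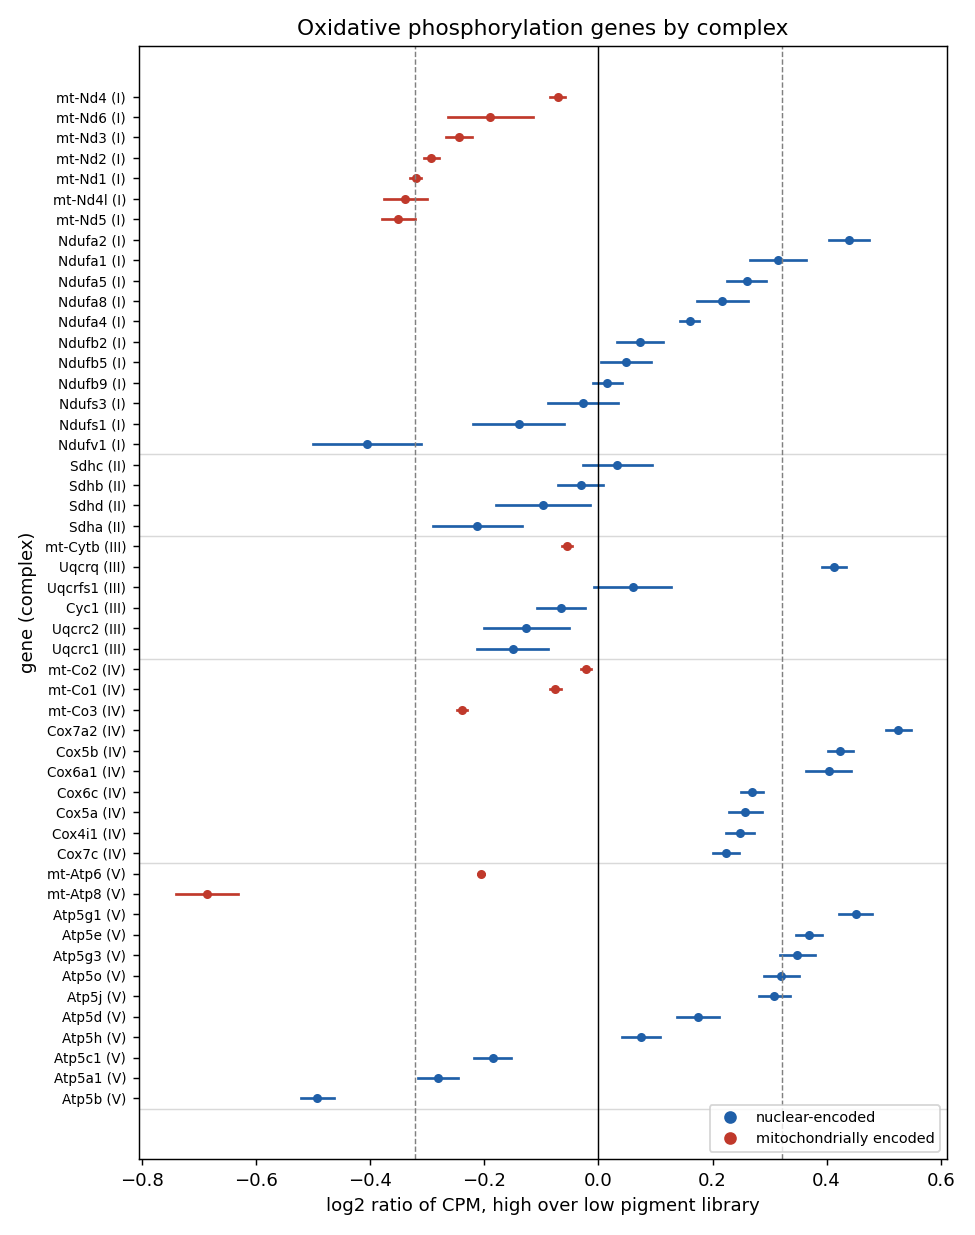
Log2 ratio of CPM in the high pigment over the low pigment library for each of the 50 genes, grouped by complex I to V, with mitochondrially encoded genes in red and nuclear genes in blue. Lines are exact 95% counting intervals and dashed lines mark a difference of 25%. All 13 red points lie left of 0, the 7 nuclear complex IV genes all lie right of 0, and nuclear genes of complexes I and V lie on both sides.

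In complex I, the NADH dehydrogenase, the nuclear and mitochondrial sums lay on opposite sides of 1. Its 11 nuclear members had a summed ratio of 1.110 (1.102 to 1.118) and its 7 mitochondrial members 0.836 (0.832 to 0.840). Among the nuclear members, the largest ratio belonged to Ndufa2, a supernumerary subunit of the matrix arm, with 487 CPM in the high pigment and 359 CPM in the low pigment library (1.356, 1.323 to 1.390). The smallest was that of Ndufv1, which binds NADH and FMN, with 52.8 CPM in the high pigment and 69.9 CPM in the low pigment library (0.755, 0.707 to 0.806). The division followed the role of the subunit: all 3 nuclear core subunits, Ndufs1, Ndufs3 and Ndufv1, which carry the NADH site or the iron-sulfur centres or belong to the quinone arm, had ratios from 0.755 to 0.981. All 8 supernumerary subunits, which surround the core and take no direct part in electron transfer, had ratios from 1.011 to 1.356. Ndufa4, counted among these 8 with 1976 CPM in the high pigment and 1769 CPM in the low pigment library, carries a complex I name but has since been assigned to complex IV.

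The 7 mitochondrial subunits of complex I form its proton-pumping membrane arm. mt-Nd1, where quinone enters, had 5437 CPM in the high pigment and 6788 CPM in the low pigment library, a ratio of 0.801 (0.796 to 0.806), just short of the limit for a lower call. mt-Nd5, the pump at the far end of the arm, had 564 and 719 CPM in the high and the low pigment library (0.784, 0.768 to 0.80), and mt-Nd4l had 332 and 419 CPM (0.791, 0.770 to 0.812). These were the only 2 of the 7 called lower. mt-Nd2 (0.816), mt-Nd3 (0.844) and mt-Nd6 (0.877), the only member on the other strand of the mitochondrial DNA, followed, and mt-Nd4 was closest to 1 with 2806 CPM in the high pigment and 2949 CPM in the low pigment library (0.952, 0.943 to 0.961). mt-Nd4 and mt-Nd4l share 7 bases and are transcribed as 1 messenger, yet their ratios differed beyond counting error.

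Complex II, succinate dehydrogenase, which also works in the TCA cycle, differed little. Its 4 members summed to 0.0654% of UMIs in the high pigment and 0.0676% in the low pigment library, a ratio of 0.967 (0.948 to 0.986). Sdhc, one of its membrane anchors, had the largest ratio, with 148 CPM in the high pigment and 145 CPM in the low pigment library (1.023, 0.982 to 1.067). Sdha, the flavoprotein that oxidises succinate, had the smallest, with 81.5 CPM in the high pigment and 94.4 CPM in the low pigment library (0.863, 0.817 to 0.911). The interval of Sdhc spans 1 and that of Sdha does not. Sdhb, the iron-sulfur subunit, had a ratio of 0.978 and Sdhd, the other anchor, 0.935.

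In complex III, the bc1 complex, 1 gene set the sum. The 5 nuclear members had a summed ratio of 1.177 (1.163 to 1.191) but a median log2 ratio of −0.07. Uqcrq, a small supernumerary subunit, had 1306 CPM in the high pigment and 981 CPM in the low pigment library (1.331, 1.311 to 1.351) and was the only member called higher. The core proteins Uqcrc1 and Uqcrc2 had ratios of 0.901 and 0.916, with Uqcrc1 at 132 CPM in the high pigment and 146 CPM in the low pigment library. Of the subunits that carry electrons, the Rieske protein Uqcrfs1 had a ratio of 1.042 with an interval spanning 1 (0.995 to 1.092), and cytochrome c1, Cyc1, had 0.955. mt-Cytb, the mitochondrially encoded cytochrome b, had 6056 CPM in the high pigment and 6293 CPM in the low pigment library (0.962, 0.956 to 0.969).

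Complex IV, cytochrome c oxidase, was the only complex whose nuclear members among the 50 genes all had intervals above 1. All of them also have short transcripts, of 540 to 755 bases, and length is taken up below. Its 7 nuclear members, all supernumerary subunits around a mitochondrially encoded core, made up 0.742% of UMIs in the high pigment and 0.589% in the low pigment library, a ratio of 1.260 (1.252 to 1.267). Cox7a2 (chromosome 9, 79755361 to 79759878 on mm10) had the largest ratio of all 50 genes, with 37720 UMIs or 1308 CPM in the high pigment library and 29465 UMIs or 908 CPM in the low pigment library (1.439, 1.418 to 1.462). Cox5b, a zinc-binding subunit, had a ratio of 1.341 and Cox6a1 had 1.323, and both were called higher. The other 4, Cox4i1, Cox5a, Cox6c and Cox7c, had ratios from 1.168 to 1.205, the smallest being that of Cox7c with 1149 CPM in the high pigment and 984 CPM in the low pigment library. The 3 mitochondrial genes encode the catalytic core. mt-Co1, which holds the site of oxygen reduction, had 5334 and 5620 CPM in the high and the low pigment library (0.949), mt-Co2, which accepts electrons from cytochrome c, had 6473 and 6574 CPM (0.985), and mt-Co3 had 5833 and 6887 CPM (0.847). The 3 core genes thus differed among themselves, and mt-Co2 was nearest to 1 of all 13.

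In complex V, the ATP synthase, the subunits of the F1 part lay on both sides of 1, and those of the c ring and the peripheral stalk above it. In the F1 head, where ATP is made, Atp5b, the catalytic beta subunit (chromosome 10, 128083273 to 128090391), had 16299 UMIs or 565 CPM in the high pigment library and 25784 UMIs or 795 CPM in the low pigment library. Its ratio of 0.711 (0.697 to 0.725) was the smallest of all 37 nuclear members. Its partner Atp5a1, the alpha subunit, had a ratio of 0.823, and Atp5c1, the central shaft, 0.879. The remaining F1 subunits were on the other side of 1, with Atp5d at 1.129 and Atp5e at 1.291. Atp5g1 (chromosome 11, 96068852 to 96075670) and Atp5g3, which encode the same rotating c ring subunit, had ratios of 1.367 (1.340 to 1.394) and 1.274 (1.247 to 1.301), and Atp5g1 had the largest of the complex with 745 CPM in the high pigment and 545 CPM in the low pigment library. The peripheral stalk subunits Atp5h, Atp5j and Atp5o had ratios from 1.053 to 1.249. Atp5o at 1.249, Ndufa1 at 1.244 and Atp5j at 1.238 lay just below the limit for a call, and Atp5g3 at 1.274 lay just above it.

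mt-Atp6, the proton channel, had 13470 CPM in the high pigment and 15536 CPM in the low pigment library (0.867, 0.863 to 0.871). mt-Atp8, a small membrane subunit, had 4168 UMIs or 144 CPM in the high pigment and 7542 UMIs or 233 CPM in the low pigment library. Its ratio of 0.621 (0.598 to 0.645) was the smallest of all 50 genes. The pair shares 43 bases on chromosome M, from 7927 to 7969, and is transcribed as 1 messenger. The gene is shown because this shared end lies at its 3' end, where reads cannot be given to either gene from their sequence alone. It is read from GENCODE M21 transcripts on GRCm38, chrM:7766-7969, plus strand, and the capitals mark the bases shared with mt-Atp6.
mt-Atp8: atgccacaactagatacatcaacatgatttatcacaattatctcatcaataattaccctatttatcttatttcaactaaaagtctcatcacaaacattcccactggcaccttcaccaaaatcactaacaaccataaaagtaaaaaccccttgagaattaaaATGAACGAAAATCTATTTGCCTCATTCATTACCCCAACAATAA
The labels do not say how reads in the shared bases were counted, so the level of mt-Atp8 is uncertain to that extent. The 3' end of the shared messenger lies past mt-Atp8, at the end of mt-Atp6. UMIs of mt-Atp8 thus do not count a messenger of its own, and the same holds for mt-Nd4l, which lies ahead of mt-Nd4. Many subunit genes also have processed or mitochondrial copies elsewhere in the nuclear genome, and how reads matching several places were counted is not stated either.

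Promoters were compared because the subunit genes are known to share binding sites of NRF1 and GABPA, transcription factors of respiratory genes. Of the 37 nuclear members, 27 matched an entry of RefSeq promoters on GRCm38.p6 by symbol, each searched over 300 bases on both strands. The NRF1 motif, a palindrome of 10 bases, was found in its exact letters in 2 of the 27 (7.41%), Cox6a1 and Uqcrc1, against 2.77% of the measured genes with a promoter. Searched with the fifth base free, it was in 10 (37.0%), against 14.1% of measured genes and 5.19% of all genes in the table. The GABPA letters CCGGAAG were in 7 (25.9%), against 24.3% of measured genes. The SP1 letters GGGGCGGGG were in 4 (14.8%), against 27.0%, and the YY1 letters AAGATGGCG were in 1, Atp5j. The median log2 ratio was 0.15 in members with the NRF1 motif in this looser form and 0.17 in those without.

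The 250 bases just upstream of the start are shown for the nuclear members with the largest and smallest ratios, Cox7a2 (chr9:79759854-79760103, minus strand) and Atp5b (chr10:128083057-128083306, plus strand). Cox6a1 (chr5:115348959-115349208, minus strand) is shown as a complex IV gene that holds the motifs of both NRF1 and GABPA. Capitals mark matches to any of these motifs on either strand.
Cox7a2 promoter: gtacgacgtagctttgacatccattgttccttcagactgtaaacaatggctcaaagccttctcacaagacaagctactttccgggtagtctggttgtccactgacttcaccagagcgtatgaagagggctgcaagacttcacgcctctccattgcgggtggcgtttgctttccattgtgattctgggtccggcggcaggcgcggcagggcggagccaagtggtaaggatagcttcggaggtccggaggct
Atp5b promoter: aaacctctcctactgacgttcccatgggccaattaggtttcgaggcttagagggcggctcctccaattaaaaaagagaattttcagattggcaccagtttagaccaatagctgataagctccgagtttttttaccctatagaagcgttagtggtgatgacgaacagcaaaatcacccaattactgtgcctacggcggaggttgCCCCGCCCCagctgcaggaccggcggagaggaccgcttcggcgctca
Cox6a1 promoter: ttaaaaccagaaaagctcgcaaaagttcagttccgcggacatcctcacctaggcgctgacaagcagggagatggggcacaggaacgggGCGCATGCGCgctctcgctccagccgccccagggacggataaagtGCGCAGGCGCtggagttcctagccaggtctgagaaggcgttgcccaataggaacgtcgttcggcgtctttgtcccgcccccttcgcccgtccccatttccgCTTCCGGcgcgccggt
Cox7a2 held no match in this stretch, Atp5b held the SP1 letters on the minus strand, and Cox6a1 held the NRF1 motif at 2 places, one of them exact, and the GABPA letters at 1. Matches are letters in a window and were not tied to binding in these cells.

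Transcript length moved with the ratios of the nuclear members. All 21 nuclear members with an annotated length under 1000 bases had ratios above 1, with 7 called higher and 0 lower, and their median log2 ratio was 0.27. Of the 814 measured genes of that length, 20.6% were called higher and 6.88% lower, and their median was 0.13. The 16 longer nuclear members had 1 gene called higher and 2 lower and a median of −0.11, against 9.73% higher, 25.3% lower and a median of −0.10 for the 7032 longer measured genes. The Spearman correlation of length with log2 ratio was −0.64 across the 37 nuclear members, 0.30 across the 13 mitochondrial members and −0.07 across 7846 measured genes. Genes are not independent replicates, and the log2 ratio also had a correlation of 0.58 with mean CPM across the 37.

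With the median of each length class taken off, the median log2 ratio of the nuclear members was 0.08 and that of the mitochondrial members −0.33. Only Atp5g1, at 0.56, and Cox7a2, at 0.35, then remained past the limit for a higher call. The single longer member called higher was Atp5g1, whose annotated lengths have a median of 2675.5 bases and a minimum of 596, so its place on this scale depends on the isoform. The core and supernumerary division above runs along the same axis, since the 3 complex I core genes are 1046 bases or longer and 7 of the 8 supernumerary ones are under 1000. In complex V, Atp5a1, Atp5b and Atp5c1, with ratios below 1, are 1166 bases or longer, and Atp5d and Atp5e, above 1, are 931 and 421. The nuclear complex IV genes are 540 to 755 bases long. With length taken off, their median log2 ratio was 0.09, beside 0.11 for nuclear complex V. The part of length in the nuclear result was not tested beyond these values. The 13 mitochondrial genes, 204 to 1824 bases long, lay below the line of all genes of their length in 11 cases. For pairs on 1 messenger, such as mt-Atp8 with mt-Atp6 and mt-Nd4l with mt-Nd4, the annotated gene length is not that of the messenger. Their length-adjusted values are uncertain to that extent.

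**Figure D2:**
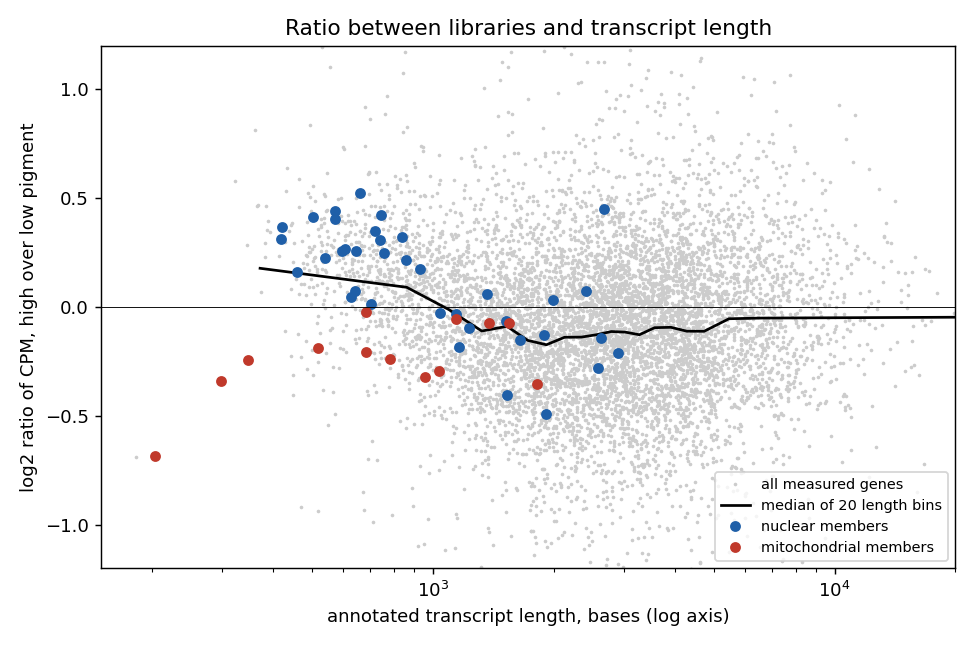
Log2 ratio of CPM in the high pigment over the low pigment library against annotated transcript length in bases on a log axis, for all measured genes in grey, the nuclear members in blue and the mitochondrial members in red. The black line joins the medians of 20 length bins, and 124 measured genes lie outside the plotted range or have no length. Nuclear members under 1000 bases lie above 0 and longer ones mostly below it, while mitochondrial members lie below 0 at every length.

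The difference also depended on how many UMIs a cell had. Cells were thinned to 7500 UMIs each and compared within 4 bands of their original UMI count. In cells of 7500 to 10000 UMIs, the nuclear members had a median share of 2.01% in 540 high pigment cells and 2.01% in 84 low pigment cells. The medians were 2.03% and 1.89% from 10000 to 15000 UMIs, 2.12% and 1.84% from 15000 to 20000 UMIs, and 2.35% and 1.80% in the 206 high pigment and 445 low pigment cells above that. The medians were thus level in the shallowest band, where the low pigment library had few cells, and stood further apart in each deeper band, higher in high pigment and lower in low pigment cells.

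The mitochondrial medians were lower in each deeper band in both libraries, with a wider span in high pigment cells. Their median share was 5.92% in high pigment and 6.18% in low pigment cells of the first band, 5.16% and 6.03% in the second, 4.56% and 5.61% in the next and 3.87% and 5.05% in the last. Summed over cells without thinning, the ratio of the nuclear members was 1.001 (0.984 to 1.018), 1.086, 1.177 and 1.324 across the bands, and that of the mitochondrial members 0.986 (0.977 to 0.996), 0.866, 0.808 and 0.752. The median log2 ratio of all measured genes also fell, with −0.020, −0.016, −0.086 and −0.257. Beside it, the nuclear median was −0.001, 0.072, 0.129 and 0.326, and the mitochondrial median −0.036, −0.227, −0.425 and −0.470. Measured from all genes, the mitochondrial median thus lay no further down in the deepest band than in the band before. Of the nuclear members 0, 3, 11 and 19 were called higher, beside 21.0%, 17.1%, 13.4% and 10.6% of measured genes, and 3, 1, 2 and 6 were called lower, beside 24.4%, 19.7%, 26.4% and 44.2%. The 3 lower calls of the shallowest band, 8.11% of the nuclear members, were Ndufs3 (0.726), Atp5b (0.735) and Ndufv1 (0.744). Atp5b and Ndufv1 were also called lower over all cells, where Ndufs3 had a ratio of 0.981. Of the mitochondrial members 1, 5, 8 and 10 were called lower, read against the same lower shares of measured genes, and 1 was called higher in the first band alone. In the deepest band all 7 nuclear complex IV genes were called higher, with a summed ratio of 1.492 (1.474 to 1.510), while in the shallowest band their sum was 1.074 (1.042 to 1.107) and none was called.

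Single members differed in how they behaved across the bands. Cox7a2 had ratios of 1.245, 1.378, 1.530 and 1.671, Ndufa4 had 0.875, 1.005, 1.134 and 1.363, and Atp5b had 0.735, 0.719, 0.666 and 0.566. Cox7a2 and Atp5b were therefore on their own side of 1 in every band, and Ndufa4 was not. mt-Atp8 was below 1 in every band, with 0.731, 0.617, 0.528 and 0.489. mt-Nd6 had 1.513, 1.123, 0.720 and 0.567, and mt-Co2 had 1.056, 0.959, 0.898 and 0.855. The cells of the bands differed in other ways as well. In the deepest band 27.7% of high pigment and 12.1% of low pigment cells were in G1, a thinned cell had a median of 2532 and 2789 detected genes, and 2.91% and 3.37% of cells were marked as doublets. In the band from 10000 to 15000 UMIs, 25.2% of high pigment and 64.1% of low pigment cells were in G1. Their part in the result was not tested.

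**Figure D3:**
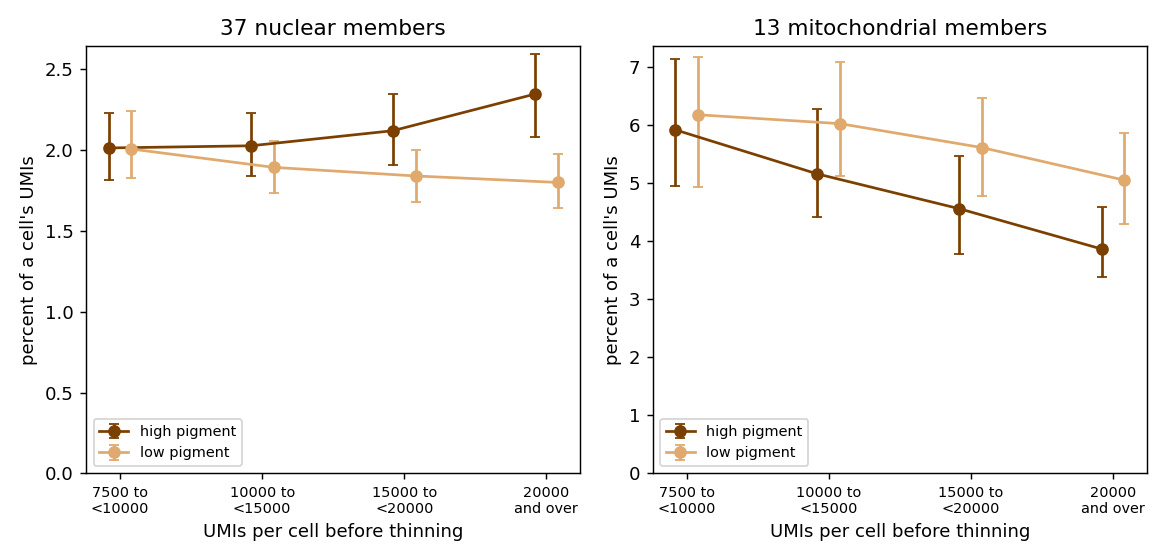
Median share of a cell's UMIs, in percent, from the 37 nuclear members on the left and the 13 mitochondrial members on the right, in 4 bands of UMIs per cell, after thinning every cell to 7500 UMIs. Dark points are high pigment cells, light points low pigment cells, and bars span the quartiles. The nuclear medians meet at 2.01% in the first band and stand at 2.35% and 1.80% in the last, and the mitochondrial medians stand at 3.87% and 5.05% there.

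The balance of the genomes was measured in each thinned cell as the log2 of nuclear-member over mitochondrial-member UMIs, with 0.5 added to each. Its median was −1.32 in high pigment and −1.59 in low pigment cells, a difference of 0.27 on the log2 scale, and 0.29 without thinning. Of the high pigment cells, 72.8% (70.9% to 74.7%) lay above the median of the low pigment cells. The same share was 73.8% for the nuclear members alone and 36.0% for the mitochondrial members alone, so the distributions overlapped widely. The spread of the nuclear share between cells was wider in high pigment cells, with an SD of 0.372 percentage points against 0.274 in low pigment cells, where counting alone gave 0.166 and 0.157. For the mitochondrial share the SD was 1.55 points in high pigment and 1.41 points in low pigment cells, where counting gave 0.257 and 0.269. Fewer than 1% mitochondrial-member UMIs were found in 18 high pigment and 2 low pigment cells.

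Within a library, the nuclear and the mitochondrial shares were only loosely tied. Across the 2136 high pigment cells their Spearman correlation was −0.07, and across the 1900 low pigment cells it was 0.25. Against the UMIs of a cell before thinning, the nuclear share had a correlation of 0.21 in high pigment and −0.18 in low pigment cells, and the mitochondrial share −0.46 and −0.29. Cells of 1 library share their sort and preparation, and shares of the same total depend on each other. Among the mitochondrial genes, mt-Atp6 followed the sum of the others most closely (0.88 in high pigment and 0.82 in low pigment cells), and mt-Nd6 least (0.11 and −0.02). Among nuclear genes the highest values were those of Ndufa4 (0.41 and 0.35), while Atp5b had −0.14 in high pigment and 0.05 in low pigment cells.

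The difference was seen in each cell cycle phase of the authors' table. The summed nuclear ratio was 1.169 in G1, 1.138 in S and 1.163 in G2M cells, and the summed mitochondrial ratio was 0.886, 0.924 and 0.888. In G1 cells 9 nuclear members were called higher, in S cells 7 and in G2M cells 9, beside 11.8%, 13.6% and 11.1% of measured genes. Mitochondrial members called lower numbered 4, 1 and 3, beside 25.9%, 22.2% and 26.1%. Of the 37 nuclear members, 22 had a ratio above 1 in all 3 phases and 10 below 1 in all 3, and 5 were split. Ndufa2, Uqcrq, Cox5b, Cox6a1, Cox7a2 and Atp5g1 were called higher in all 3 phases, and Atp5b was the only nuclear member called lower in all 3. mt-Atp8 was called lower in all 3, with ratios of 0.611, 0.631 and 0.650, and was the only mitochondrial member called lower in S cells. Only mt-Co1 and mt-Co2 were split among the mitochondrial genes, with ratios of 1.000 and 1.034 in S cells. The share of all measured genes that kept their side or their call in all 3 phases was not counted. The phases are cells of the same 2 libraries, so the counts over all 3 are a description and no repeat.

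The medians of the balance were −1.36 in high pigment and −1.61 in low pigment cells of G1, −1.35 and −1.59 in S, and −1.26 and −1.58 in G2M. Within each library the phases differed less on this scale than the libraries did within any phase.

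**Figure D4:**
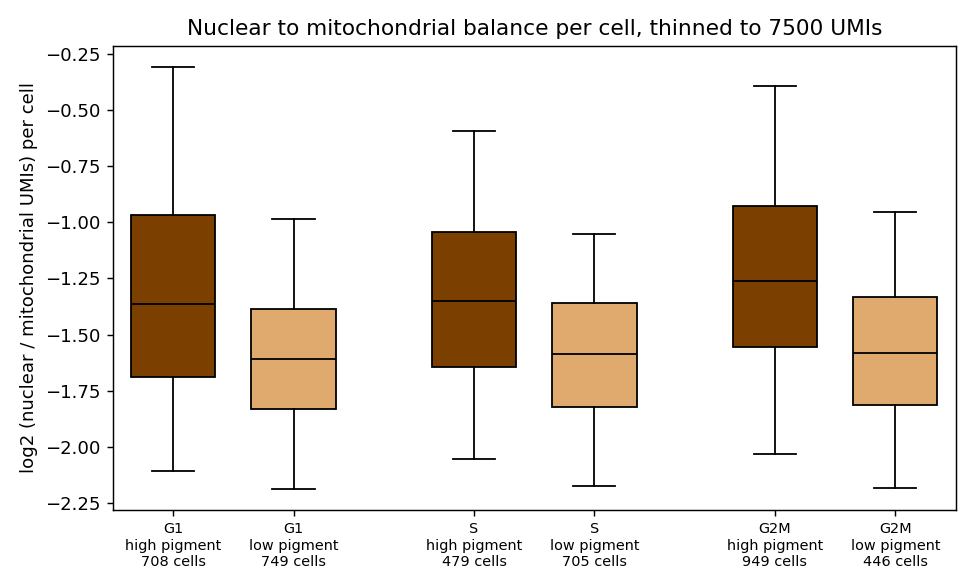
Log2 of nuclear-member over mitochondrial-member UMIs per cell after thinning to 7500 UMIs, by cell cycle phase and library, with high pigment cells dark and low pigment cells light. Boxes span the quartiles with the median as a line, and whiskers span the 5th to 95th percentiles. High pigment medians stand at −1.36, −1.35 and −1.26 in G1, S and G2M, above the low pigment medians of −1.61, −1.59 and −1.58, with wide overlap.

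The authors' clusters split each library in 2. Cluster 0 held 1520 and cluster 3 held 523 of the high pigment cells, and cluster 1 held 1023 and cluster 2 held 822 of the low pigment cells. The other pairings held 19 to 48 cells each and were not described further. The nuclear members made up 2.18% of UMIs in cluster 0 and 2.06% in cluster 3 of the high pigment library, and 1.90% in cluster 1 and 1.81% in cluster 2 of the low pigment library. The mitochondrial members made up 4.79% and 5.80% in clusters 0 and 3, and 5.86% and 5.40% in clusters 1 and 2. The mitochondrial share of high pigment cluster 3 thus lay inside the range of the low pigment clusters, and its nuclear share lay above both.

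The members followed these sums unevenly. Cox7a2 had 1361 CPM in cluster 0 and 1131 CPM in cluster 3, against 901 and 904 CPM in clusters 1 and 2. Atp5b had 533 CPM in cluster 0 and 669 CPM in cluster 3, against 838 and 754 CPM in clusters 1 and 2. mt-Atp8 had 133 CPM in cluster 0 and 181 CPM in cluster 3, against 246 and 221 CPM in clusters 1 and 2. These 3 genes were shown for their extreme ratios between the whole libraries, so their values by cluster are part of the same contrast. Other members were apart as well, such as Cox5b with 1308 and 1180 CPM in clusters 0 and 3 against 975 and 919 CPM in clusters 1 and 2. Not all were: mt-Cytb had 5834 and 6963 CPM in clusters 0 and 3 against 6610 and 5934 CPM in clusters 1 and 2. The cells of cluster 3 had a median of 9606 UMIs, those of cluster 0 had 13853.5, and those of clusters 1 and 2 had 14204 and 18959. The clusters were made from the genes of the same cells, so these values are a description.

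**Figure D5:**
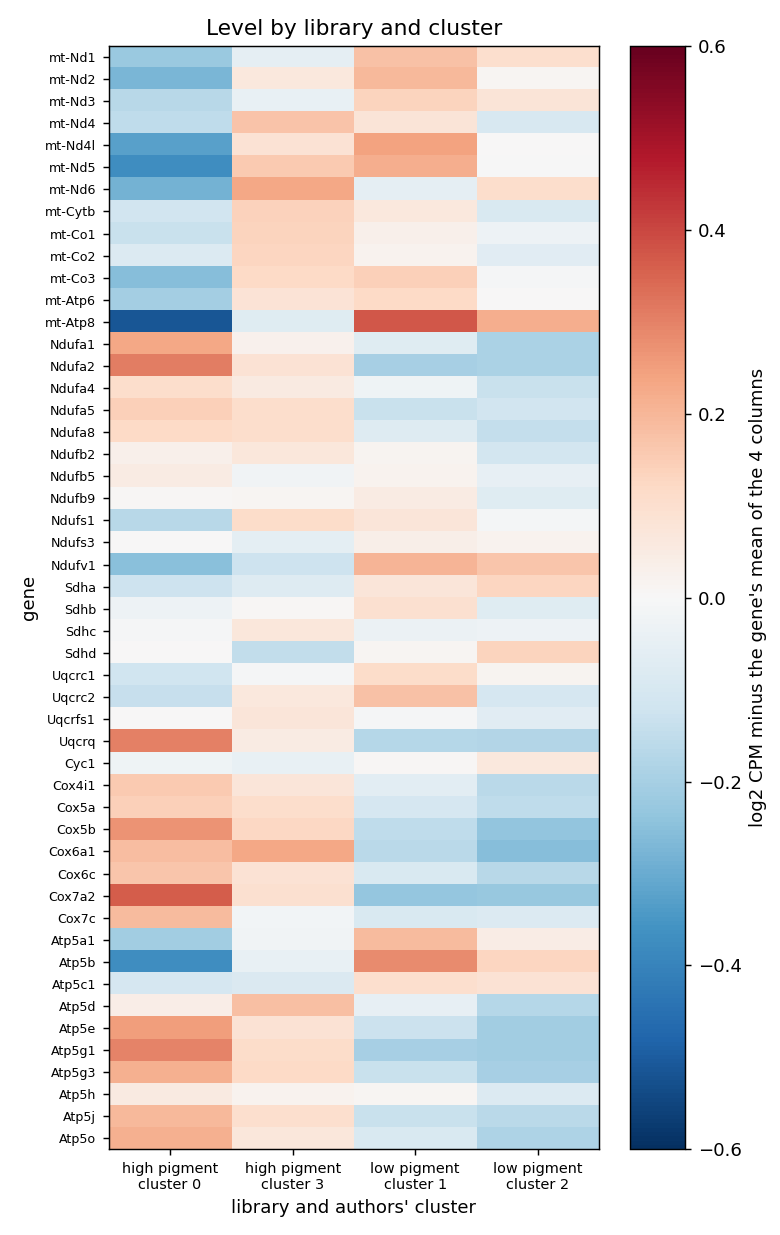
Log2 CPM of each of the 50 genes in the 4 main pairings of library and authors' cluster, high pigment on the left, relative to the gene's own mean over the 4 columns, with red above and blue below it. Mitochondrial genes are at the top, and nuclear genes follow by complex. In high pigment cluster 0 all mitochondrial genes are blue and all nuclear complex IV genes red, with Cox7a2 the deepest red among nuclear genes, while in high pigment cluster 3 most mitochondrial genes are pale red.

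Melanin genes were compared with the members cell by cell within each library, so that the sort itself did not enter. The share of 16 melanin genes had a Spearman correlation with the nuclear share of 0.21 across high pigment and 0.20 across low pigment cells, and with the mitochondrial share of 0.19 and 0.31. Its correlation with the balance was −0.05 in high pigment and −0.19 in low pigment cells. Both sets of subunit genes were thus loosely and positively tied to the summed share of this list within a library, although only the nuclear set had the larger share in the high pigment library. The melanin share itself had a correlation of −0.08 in high pigment and −0.19 in low pigment cells with the UMIs of a cell before thinning.

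The genes of the melanin list did not act alike. Ptgds, prostaglandin D synthase, had the highest correlation with the nuclear share, 0.39 in high pigment and 0.30 in low pigment cells, followed by the melanosome protein Mlana with 0.32 and 0.16. Pmel, which forms the fibrils on which melanin is laid down, had −0.12 and 0.08 with the nuclear share and 0.30 and 0.26 with the mitochondrial share. Of the melanin enzymes, Tyr had −0.05 and 0.05 with the nuclear share, Tyrp1 −0.06 and −0.06, and Dct 0.16 and 0.16. Slc7a11 had −0.06 and −0.15. Dct weighed most in the list, with a mean of 60.1 thinned UMIs per high pigment cell, beside 128 for the list without Ptgds. Without Ptgds, the correlation of the list was 0.13 and 0.15 with the nuclear share and 0.18 and 0.28 with the mitochondrial share. Sparse counts lower such values, and they carry no test.

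Each library was split into 3 equal groups of cells by melanin share, 712 cells each in the high pigment and 633 each in the low pigment library. In the top group the nuclear members made up 2.21% of UMIs against 2.003% in the bottom group in the high pigment library, and 1.95% against 1.82% in the low pigment library. The mitochondrial members made up 5.51% against 4.95% in the high pigment library and 6.30% against 5.35% in the low pigment library. G1 cells were 40.9% of the top and 29.6% of the bottom group in the high pigment library, and 47.7% and 32.7% in the low pigment library. Atp5e had the largest ratio of top over bottom group among the nuclear members in the high pigment library (1.264, 1.219 to 1.310), and Uqcrc2 had the largest in the low pigment library (1.261, 1.109 to 1.435). mt-Nd6 had the smallest ratio of the mitochondrial genes in both libraries, 0.80 (0.704 to 0.908) in the high pigment and 0.833 (0.732 to 0.949) in the low pigment library.

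The genes whose share followed that of the summed nuclear members most closely, of 1525 genes with a mean of at least 100 CPM outside the list, were Ptgds (mean correlation over both libraries 0.347), Chchd2 (0.328), Dbi (0.324), Uqcr10 (0.307) and Cox7b (0.305). Chchd2 encodes a mitochondrial protein, Dbi an acyl-CoA binding protein, and Uqcr10 and Cox7b are subunits of complexes III and IV. Chchd2 had about the same level in both libraries, with 1926 CPM in the high pigment and 1952 CPM in the low pigment library. Near the other end of the ranking, named after its value was seen, was Malat1, a long RNA kept in the nucleus, with −0.272.

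Further subunit genes of the 5 complexes, outside the 50, were counted in the same way. The list also held Cycs, cytochrome c (1.279, called higher), and Atpif1, an ATP synthase inhibitor (1.204), which are not subunits of these complexes. Of 43 measured, 16 were called higher and 1 lower, or 37.2% and 2.33%, beside 10.9% and 23.4% of all measured genes. Their median log2 ratio was 0.25, and their sum had a ratio of 1.231 (1.226 to 1.235). Atp5md, a small subunit of complex V, had 787 CPM in the high pigment and 448 CPM in the low pigment library (1.758), Uqcr10 had 1013 and 650 CPM (1.558), and Ndufa11 had 264 and 172 CPM (1.533). Among the smallest ratios was that of the complex I subunit Ndufa9 (0.819). Cox7a2l, 1102.5 bases long, had 0.912 (0.883 to 0.941), so not every gene with a complex IV name had an interval above 1. All 31 of these genes that are under 1000 bases long had a ratio above 1, as had 557 of the 814 measured genes of that length. Of the 31, 14 were called higher, beside 20.6% of the 814.

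Other lists held genes that serve the complexes without being part of them. All counts of calls for them stand beside the 10.9% higher and 23.4% lower, and the median of −0.08, of all measured genes. Of 40 measured assembly factors, 5 (12.5%) were called higher and 11 (27.5%) lower. Their median log2 ratio was −0.12, so shares and median were near those of all measured genes. The largest ratios were those of the complex IV factors Cox11 (1.423), Pet100 (1.413) and Cox17 (1.317), and the smallest those of Sdhaf1 (0.674), for complex II, and Uqcc1 (0.742), for complex III. Of 18 TCA cycle genes, which supply the electrons, 0 were called higher and 6 (33.3%) lower, with a median of −0.20. Ogdh (1.132) and Idh3a (1.102) had the largest and Fh1 (0.595) and Idh2 (0.718) the smallest ratios.

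Of 37 measured genes for mitochondrial RNA and ribosomes, 5 (13.5%) were called higher and 6 (16.2%) lower, beside the same 10.9% and 23.4%, with a median of 0.07. Mterf4 (1.416), Slirp (1.293), which binds mitochondrial messengers, and Tfb2m (1.290), which starts mitochondrial transcription, had the largest ratios. Pnpt1, with 13.6 CPM in the high pigment and 22.9 CPM in the low pigment library (0.591, 0.521 to 0.669), and Supv3l1, with 8.70 and 14.4 CPM (0.606, 0.517 to 0.708), which together degrade mitochondrial RNA, had the smallest. Of 26 genes for protein import, 4 (15.4%) were called higher and 4 (15.4%) lower, beside 10.9% and 23.4%, with a median of 0.09. Tomm6 (1.435), Timm22 (1.425) and Tomm7 (1.393) had the largest and Pmpcb (0.703) and Oxa1l (0.748) the smallest ratios.

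Among the transcription factors and coactivators of respiratory genes, the levels diverged. Ppargc1a had 234 CPM in the high pigment and 101 CPM in the low pigment library. Esrra, a receptor it acts with, had 8.35 CPM in the high pigment and 12.6 CPM in the low pigment library (0.661, 0.561 to 0.777). The intervals of Nrf1 (0.983, 0.896 to 1.078), Gabpa (0.937, 0.844 to 1.040) and Pprc1 (1.005, 0.896 to 1.128) all spanned 1.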

How the data were processed

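The authors deposited 1 matrix of UMI counts for both libraries, made with Cell Ranger 6.1.2 on mm10 per the submitters' processing notes, and a cell table. No source used here says whether the step that joined the libraries equalised their depth, or how reads with several matches were treated. The deposited table gives counts, the percent of mitochondrial UMIs, gene-set scores, and other columns with phase and cluster, which the authors assigned. The scores were not used. The table held 4036 of 5818 barcodes, exactly those that had 7500 UMIs or more, of which less than 10% were mitochondrial.

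For each library, the counts of the cells in the table were added up and scaled to CPM. Ratios have exact conditional binomial 95% intervals and shares of cells Clopper-Pearson intervals. Intervals and floors (3 UMIs, 0.104 CPM in the high pigment and 0.0925 CPM in the low pigment library) cover counting error only. Genes with a mean of at least 10 CPM counted as measured. Lengths are the median over protein-coding transcripts of GENCODE M21 (over all transcripts for genes with none), and the length trend used 20 bins. Cells were thinned to 7500 UMIs without replacement. Scrublet in scanpy 1.11.5 (expected rate 0.06) marked 15 high pigment and 18 low pigment cells as doublets, which were kept. The ratios, their intervals and the calls by size were checked on simulated counts, which held counting error alone and changes well beyond the call limit. Changes near that limit were not simulated. Values were computed with numpy 2.4.6, scipy 1.17.1 and pandas 2.3.3.

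The members and lists were chosen with earlier results of these data known. Of 230 list entries 228 were found. The text names the largest and the smallest ratio among each complex's nuclear members, all 13 mitochondrial genes, the 3 largest and 2 smallest ratios of each other list, and the 5 genes most like the nuclear sum; other members are named for their role or their distance from the limit. Some genes picked by this rule are not reported here. Alternatives covered scaling, cells used, depth, phase, length and the filter.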

Additional observations from a re-analysis of the deposited data

How the results depend on the processing

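All values below are log2 differences, high pigment over low pigment, or counts of members, and none changed sign among the alternatives listed. Cells of 7500 to 10000 UMIs, described above, were not among these alternatives. There the nuclear sum was 0.0017 and the nuclear median −0.001. The main values were 0.21 for the nuclear sum, −0.17 for the mitochondrial sum, 0.16 and −0.24 for the nuclear and mitochondrial medians, 8 nuclear members called higher, 3 mitochondrial members called lower, and 0.27 for the balance per cell. With the median ratio of all measured genes, −0.08, set to 0, they were 0.29, −0.0914, 0.24 and −0.16 for the 2 sums and 2 medians, with 15 nuclear members called higher and 1 mitochondrial member lower. With mitochondrial UMIs left out of the total, the sums were 0.198 and −0.18 and the medians 0.15 and −0.25. With no limit on mitochondrial share, the mitochondrial sum was −0.19, the medians 0.153 and −0.254, and the balance 0.293. With all barcodes of at least 2000 UMIs and under 10% mitochondrial UMIs, the sums were 0.202 and −0.146, the mitochondrial median −0.207, and 1 mitochondrial member was called lower. On the same barcodes thinned to 2000 UMIs, the balance was 0.242. As a mean of shares per cell, the sums were 0.174 and −0.139 and the medians 0.113 and −0.196, with 1 mitochondrial member lower. With every cell thinned to 7500 UMIs, they were 0.168, −0.139, 0.108 and −0.198, again with 1 lower, and without thinning the balance was 0.293.

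In G1 cells the sums were 0.225 and −0.175, the medians 0.141 and −0.208, and the balance 0.244. In S cells the sums were 0.186 and −0.115, the medians 0.113 and −0.187, and the balance 0.238, with 1 mitochondrial member lower. In G2M cells the nuclear sum was 0.218, the medians 0.175 and −0.231, and the balance 0.320. With the length trend taken off, the sums were 0.0925 and −0.245 and the medians 0.0793 and −0.331, with 2 nuclear members higher and 7 mitochondrial members lower.

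The next alternatives were chosen after seeing the data, as was thinning to 2000 UMIs. With the shortest transcript as the length, the sums were 0.160 and −0.162 and the medians 0.112 and −0.261, with 5 nuclear members higher. In cells of 10000 to 15000 UMIs, the sums were 0.119 and −0.207, the medians 0.0720 and −0.227, and the balance 0.295, with 3 nuclear members higher and 5 mitochondrial members lower. Leaving out marked doublets, or measuring genes from 2 CPM, moved no value beyond counting error. The cause of these shifts was not tested.

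No paired analysis was possible because each group has 1 library. Depth limits single members such as Ndufv1, whose interval spanned 0.707 to 0.806.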

Other observations

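Barcodes outside the authors' cell table were in no comparison above. There were 696 of them in the high pigment and 1086 in the low pigment library. Their summed UMIs were 2.11% nuclear-member and 8.12% mitochondrial-member in the high pigment library, and 1.71% and 22.2% in the low pigment library. Over 50% mitochondrial UMIs were found in 5 such barcodes of the high pigment and 434 of the low pigment library. Those 434 had a median of 902.5 UMIs.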
